A study of Homo sapiens with 8 samples.

Results

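Inhibition of the acetyltransferase site of p300 and CBP was compared directly with inhibition of their bromodomains. The comparison rests on 4 of the 8 RNA-seq libraries of the series: 2 libraries of cells given A-485 and 2 of cells given I-CBP112, chosen by the treatment in their labels. All were from LNCaP-FGC, an established human prostate carcinoma line that depends on androgen and carries luminal epithelial features, treated for 24 h. The other 4 libraries, 2 with the solvent DMSO alone and 2 with both inhibitors together, entered the fit, and DMSO served as the reference level. Replicate number 1 or 2 marks a pair of libraries across the treatments. No source used here gives the doses, so the inhibitors cannot be compared at matched strength. No label says that libraries of a group came from separate cultures, so p-values measure the spread between these libraries, which may be technical.

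p300 (EP300) and CBP (CREBBP) are paired coactivators recruited by DNA-bound transcription factors. Their catalytic domain transfers acetyl groups to histone and non-histone lysines at enhancers and promoters, and A-485 competes with acetyl-CoA at that site. Their bromodomain is a separate pocket that reads acetyl-lysine, and I-CBP112 occupies it. In luminal prostate cells these coactivators are known for their part in the androgen response.

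Values are FPKM, fragments normalized to transcript length and library depth, summed over the transcripts of a gene and rescaled so that libraries share a common level. The text calls them scaled FPKM. Differences are on the log2(scaled FPKM + 1) scale, as A-485 minus I-CBP112, with the standard error after the ± sign and n = 2 libraries per group. The pseudocount of 1 understates the change of genes with low levels. A gene was called at an adjusted p under 0.05 (limma with the replicate number as a block, Benjamini-Hochberg over all genes tested). Approximate numbers of fragments are in units of 1e+06. On the transcripts of the table they were 14.1 and 3.89 for the I-CBP112 libraries and 25.2 and 4.76 for the A-485 libraries, fewer in replicate 2. The number that FPKM was normalized to was estimated at 17.9 and 21.6 with I-CBP112 and 32.6 and 16.6 with A-485. FPKM totals as deposited were 728120 and 181486 with I-CBP112 and 696917 and 269868 with A-485. By the second estimate I-CBP112 replicate 2 was not the shallower, and the reason for the low totals of replicate 2 was not tested. All 11 luminal prostate markers were present, and their summed level was 3576 to 3730 scaled FPKM with I-CBP112, 2346 to 2655 with A-485 and 5062 to 6192 with DMSO. In bulk RNA fewer cells of a type and less RNA per cell cannot be told apart. Of the basal markers TP63 and DSG3 were at 0 in every library, of the stromal markers DES, and of the blood and immune markers PTPRC, CD3E, CD2, MS4A1 and HBB. The summed basal markers reached 16.2 in I-CBP112 replicate 2 against 1.16 in replicate 1 and 0.0569 to 0.604 with A-485, and 14.1 of the 16.2 was KRT5. Stromal markers summed to 19.2 to 22.9 and 25.6 to 28.1, and blood and immune markers to 2.04 to 2.64 and 2.14 to 5.80, with I-CBP112 and A-485. The part of these markers in the results was not tested.

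The inhibitors were separated mainly by genes that stood lower with A-485. Of 11876 genes tested, 296 were called (2.49%), of which 244 (2.05%) were lower and 52 (0.438%) higher with A-485 than with I-CBP112. All 296 had the same direction in both replicate pairs, as did 4136 genes below and 4063 above 0 among all tested. The call rests on the mean of these same 2 pair differences, so this agreement is no separate support. Among those lower, 153 differed at least 2-fold on the log2(scaled FPKM + 1) scale and 16 at least 4-fold, and among those higher 27 differed at least 2-fold. Among the genes lower with A-485 were targets of ATF4, enzymes of lipid synthesis, genes induced by androgen and MYC. The lists behind these themes were drawn up with earlier results of these data known, and they do not account for all 244 genes. The median gene stood at 0.00, with 5932 genes above and 5944 below 0. At an unadjusted p under 0.05 (limma) stood 2550 of the 11876 genes, the background for the unadjusted list counts given below.

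All calls were lost without either A-485 library. With either one left out, limma called 0 genes, with 1423 and 1116 at an unadjusted p under 0.05 where replicate 1 or 2 was missing. Without an I-CBP112 library 76 (replicate 1) or 37 (replicate 2) were called, without a DMSO library 776 or 794, and without a library of both inhibitors 109 in each case. Without the replicate block 103 were called, and of the genes chosen for naming 19 lost their call, among them HERPUD1, FOLH1, FDFT1, LPIN1, FADS2, MAOA, KLK3, PES1, HSPA5, JUN, PPAN, ELF3, DYNC2LI1, VWF, HGD, ST5 and AC110275.1. The split of the calls moved with the scaling. With totals made equal only, 66 were higher and 120 lower, and the median gene itself shifted by 0.18. On the FPKM as deposited, 63 were higher and 31 lower, and the median gene shifted by 0.31. Differences below are relative to the median gene.

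**Figure D1:**
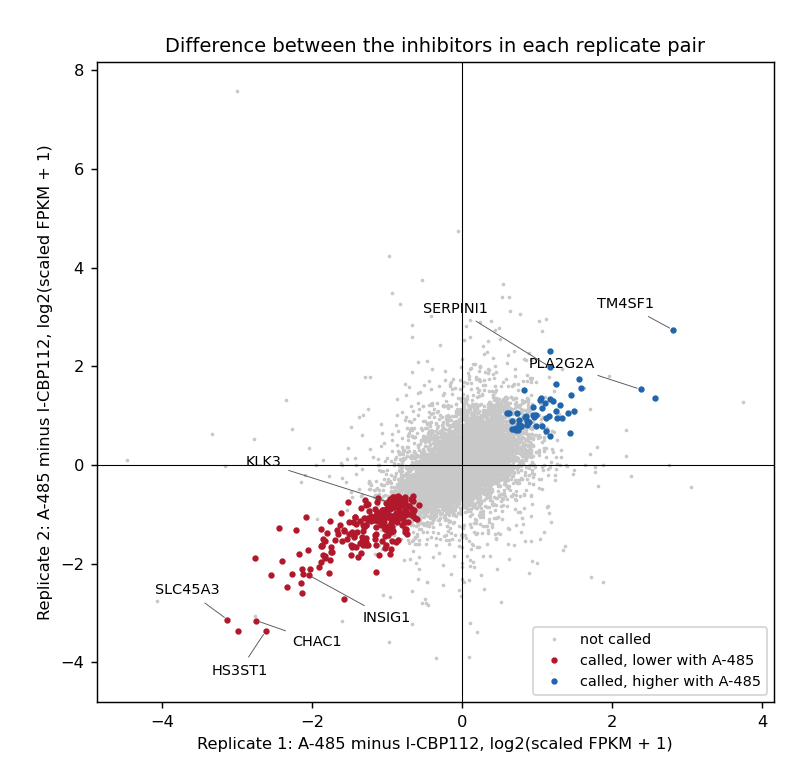
Difference between A-485 and I-CBP112 for each of 11876 genes on the log2(scaled FPKM + 1) scale, in replicate 1 (horizontal axis) and replicate 2 (vertical axis). Red and blue points are the 244 genes called lower and the 52 called higher with A-485, and grey points were not called. All called points lie in the lower left or upper right, and the call rests on the mean of these same 2 differences.

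Set against DMSO in the same fit, 1606 of the 11876 genes were called with A-485 (13.5%) and 0 with I-CBP112 (0%; limma), although 2101 genes had an unadjusted p under 0.05 with I-CBP112. These comparisons share the DMSO libraries with each other and the inhibitor libraries with the direct comparison. For 223 of the 244 genes lower with A-485 the DMSO mean lay nearer to I-CBP112, and for 21 nearer to A-485. For the 52 genes higher with A-485 these numbers were 34 and 18. The same was not counted over all genes tested, so these numbers do not set the called genes apart.

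Among the 12 genes with the largest lower values, several are characteristic of prostate epithelium. SLC45A3, which encodes the prostate membrane protein prostein and is induced by androgen, stood at 170 and 135 scaled FPKM with I-CBP112 in replicates 1 and 2 and at 18.6 and 14.5 with A-485. The DMSO libraries held 186 and 128, so the I-CBP112 values lay within the range of DMSO and both A-485 values far below it. The difference was -3.13 ± 0.14 (adjusted p = 0.00111). C1orf116, an androgen-regulated gene of epithelial cells, was at 62.0 and 66.5 with I-CBP112 and 13.4 and 10.3 with A-485, a difference of -2.36 ± 0.19 (adjusted p = 0.00368). RLN1, the relaxin hormone gene expressed in prostate, was at 32.4 and 56.8 against 6.53 and 9.94 (-2.27 ± 0.15, adjusted p = 0.00200). Its DMSO levels of 38.3 and 55.5 were also higher in replicate 2, a gap that the block takes up. In these 3 genes the libraries of the inhibitors did not overlap. How many of all genes tested show no overlap was not counted. Statements of no overlap, here and below, therefore describe single genes and are no separate support.

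In 4 others of the 12 the I-CBP112 libraries stood above both DMSO libraries and the A-485 libraries below. TMEFF2, a transmembrane protein found in prostate and brain, was at 51.9 and 66.4 with DMSO, 97.5 and 109 with I-CBP112 and 15.9 and 22.4 with A-485 (-2.39 ± 0.15, adjusted p = 0.00177). DDC, the decarboxylase that makes dopamine and serotonin, was at 97.99 and 114, 133 and 170, and 27.0 and 35.9 in that order (-2.24 ± 0.14, adjusted p = 0.00177). HS3ST1, which adds sulfate to heparan sulfate chains, was at 6.17 and 6.74, 10.8 and 17.0, and 0.918 and 0.741 (-3.00 ± 0.23, adjusted p = 0.00315). The fourth, TLE1, is a Groucho corepressor, at 17.2 and 15.6, 20.9 and 19.9, and 3.16 and 4.46 (-2.17 ± 0.18, adjusted p = 0.00368). Against DMSO alone, the I-CBP112 differences of these genes were 0.80 ± 0.15, 0.51 ± 0.14, 0.97 ± 0.23 and 0.30 ± 0.18, and limma called none (adjusted p from 0.125 to 0.409).

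HES6, a helix-loop-helix cofactor of the HES family, had 324 and 245 scaled FPKM with I-CBP112 and 63.2 and 43.1 with A-485 (-2.41 ± 0.13, adjusted p = 0.00177). CAPN5, a calpain protease, had 9.43 and 8.23 against 1.40 and 0.996, and here DMSO was the highest at 19.4 and 11.1 (-2.16 ± 0.20, adjusted p = 0.00594). TRIM49D1 was at 8.14 and 10.4 against 0.149 and 0.108 (-3.18 ± 0.19, adjusted p = 0.00177). Its size depended on the pseudocount, with -1.47 at a pseudocount of 5, where SLC45A3 stood at -2.87. TRIM49D1 is 1 of a family of near-identical copies between which fragments may be split, so its level is uncertain. CHAC1 and ELOVL7, the remaining members of the 12, are given with their pathways.

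**Figure D2:**
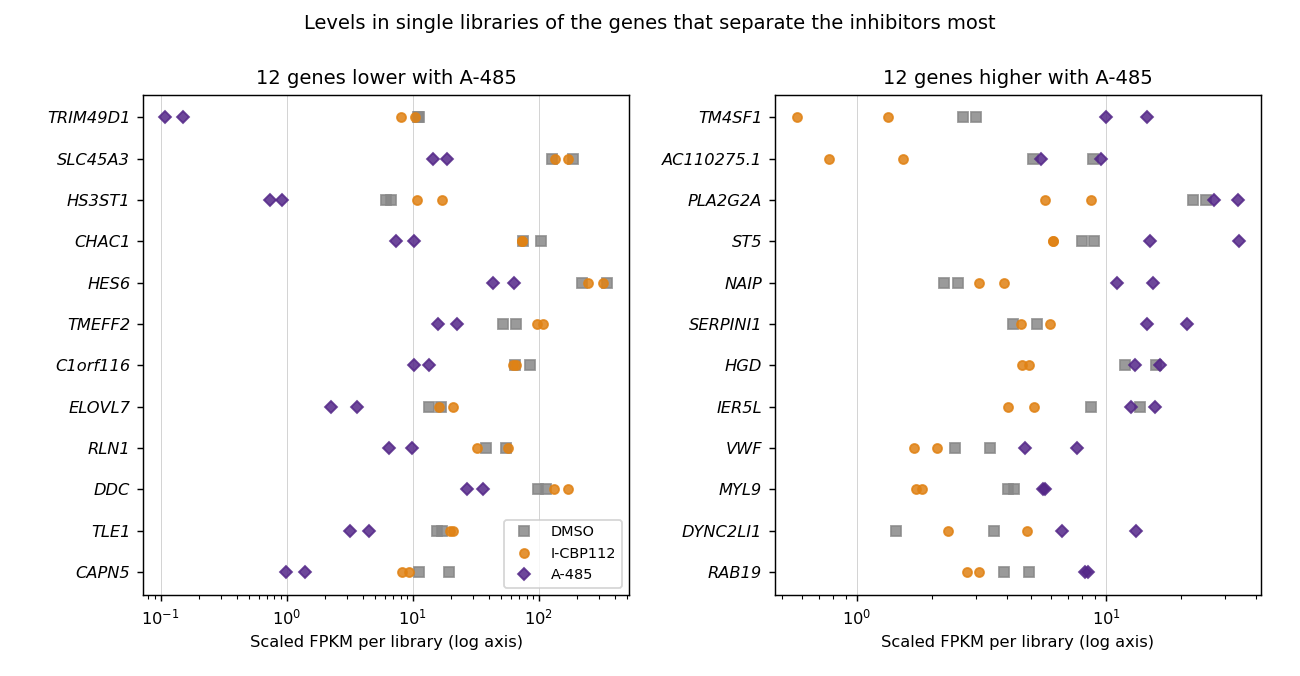
Scaled FPKM of single libraries on a log axis for the 12 genes lowest and the 12 highest with A-485 relative to I-CBP112. Squares are DMSO, circles I-CBP112 and diamonds A-485, 2 libraries each. In every row the A-485 and I-CBP112 libraries do not overlap, but the rows were chosen for the size of this difference. In most rows on the left the DMSO squares lie beside the I-CBP112 circles.

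ATF4 is the main effector of the integrated stress response. It is translated when the initiation factor eIF2 is phosphorylated and turns on amino acid synthesis, amino acid transport and tRNA charging. Over all 11876 genes tested 244 (2.05%) were called lower and 52 (0.438%) higher with A-485, and 5944 lay below 0. This is the background for the counts of this list and of those below. Where a list has few calls, the count describes those genes and not the list. Of 33 measured genes of the ATF4 list, 20 were called lower and 0 higher with A-485, and 32 lay below 0. Their median was -1.04, against 0.00 for all genes. With totals made equal only, 15 were called, on the FPKM as deposited 1, without the replicate block 7, and without either I-CBP112 library 5. The ATF4 gene itself was at 676 and 804 scaled FPKM with I-CBP112 and 304 and 398 with A-485 (-1.08 ± 0.20, adjusted p = 0.0445).

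CHAC1, which degrades glutathione, stood at 74.3 and 74.1 scaled FPKM with I-CBP112 and at 10.3 and 7.43 with A-485. The difference was -2.95 ± 0.20 (adjusted p = 0.00217), and the DMSO libraries held 105 and 74.5. PSAT1, an enzyme of serine synthesis, was at 353 and 402 against 80.1 and 93.0 (-2.11 ± 0.19, adjusted p = 0.00542). ASNS, which makes asparagine, was at 407 and 477 against 110 and 121 (-1.92 ± 0.23, adjusted p = 0.0144). ATF3, a transcription factor of the same family, was at 73.5 and 83.1 against 19.9 and 21.9 (-1.85 ± 0.21, adjusted p = 0.0128). In all 4 genes both A-485 libraries lay below every I-CBP112 and DMSO library.

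The called members spanned the branches of the response. Serine and one-carbon metabolism was represented by PSAT1, PHGDH (-1.15 ± 0.18), PSPH (-0.85) and MTHFD2 (-1.46 ± 0.24). Amino acid transport was represented by SLC7A11 (-1.24 ± 0.22) and SLC3A2 (-1.12 ± 0.16), whose products form the cystine importer, while SLC7A5 (-0.66) and SLC7A1 (-0.70) were not called. The tRNA synthetases GARS (-1.33 ± 0.17), AARS (-0.94 ± 0.17) and CARS (-0.80) were called and WARS (-0.66) was not. Stress regulators called were DDIT3, the proapoptotic factor CHOP (-1.45 ± 0.18), TRIB3 (-1.31 ± 0.19), NUPR1 (-1.25) and the mTORC1 inhibitor DDIT4 (-1.57 ± 0.13). Also called were STC2 (-1.76 ± 0.24), GPT2 (-1.04) and PYCR1 (-1.03). ATF5 (-0.11), CBS (-0.30), VLDLR (-0.44) and FGF21 (0.40) were among the 13 members not called.

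ATF4 binds, with a C/EBP partner, an element whose core is a short TGATG motif, so the windows before the starts of the called members were read from the RefSeq promoter table (GRCh38.p14, 250 bases before to 50 after a start). Of the 20 called members 15 were in the table. Those printed are the 5 in which TGATGNAA lay wholly before the start, 60 bases each, 5′ to 3′ in the direction of the gene. Capitals mark the motif or its reverse complement, TTNCATCA.
CHAC1: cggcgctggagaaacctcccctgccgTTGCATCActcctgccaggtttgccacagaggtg
ASNS: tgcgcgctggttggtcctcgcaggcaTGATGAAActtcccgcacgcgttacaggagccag
ATF3: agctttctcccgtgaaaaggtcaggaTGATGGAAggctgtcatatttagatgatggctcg
AARS: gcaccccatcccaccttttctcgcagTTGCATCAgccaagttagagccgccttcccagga
GARS: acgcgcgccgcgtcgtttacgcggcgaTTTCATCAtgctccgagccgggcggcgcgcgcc
These windows lie at chr15:40953236-40953295 for CHAC1 (gene on the plus strand), chr7:97872443-97872502 for ASNS (minus), chr1:212565190-212565249 for ATF3 (plus), chr16:70289660-70289719 for AARS (minus) and chr7:30594818-30594877 for GARS (plus). The motif begins 209, 68, 191, 187 and 33 bases before the start, in that order.

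The longer form TGATGNAAT, searched on both strands over 300 bases, was in 1 of the 15 called members (6.67%), GARS, in 1 of 12 members that were measured and not called (8.33%), FGF21, and in 333 of 27305 genes of the table (1.22%). The shorter form TGATGNAA, which contains every match of the longer one and was searched after it, was in 7 of 15 (46.7%), 2 of 12 (16.7%) and 1217 genes (4.46%). A gene counted where any of its promoters held the motif. The list was drawn up as ATF4 targets, so a share above that of all genes is not a result of these data. A match is a description of these letters and not a measured site, and no binding was measured here.

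Chaperones and folding enzymes of the endoplasmic reticulum are the targets of the unfolded protein response. Of 23 members of that list, 2 were called lower and 0 higher, with a median of -0.30 (0.11 on the FPKM as deposited). They were HERPUD1, a membrane protein of the degradation pathway, at 180 and 180 scaled FPKM with I-CBP112 and 84.6 and 85.7 with A-485 (-1.07 ± 0.15, adjusted p = 0.0241), and the chaperone BiP, HSPA5, at 191 and 199 against 110 and 120 (-0.76 ± 0.14, adjusted p = 0.0446). Both genes were at higher levels with DMSO, 278 and 278 for HERPUD1 and 249 and 236 for HSPA5. Without the replicate block, or without either I-CBP112 library, 0 were called (limma; 9 at an unadjusted p under 0.05 with the block and all libraries), and with the length and GC correction 4.

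Genes of lipid synthesis had medians above DMSO with I-CBP112 and below DMSO with A-485. Cholesterol and fatty acid enzymes are controlled by the SREBP transcription factors, which INSIG1 holds back in the endoplasmic reticulum and which also drive INSIG1 itself. Of 23 cholesterol genes 6 were called lower and 0 higher with A-485, with a median of -0.35 (0.04 on the FPKM as deposited, where all genes lay at 0.31). Of 17 fatty acid genes 6 were called lower and 0 higher, with a median of -0.75 (10 called with a length and GC correction, and 1 on the FPKM as deposited). The median differences from DMSO were 0.30 and 0.28 with I-CBP112 and -0.46 and -0.52 with A-485 for the cholesterol and fatty acid lists. Without the replicate block each list had 2 calls. Without I-CBP112 replicate 1 or 2 the cholesterol list had 1 and the fatty acid list 2 or 1.

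INSIG1 was at 41.4 and 32.2 scaled FPKM in the DMSO libraries, 83.5 and 76.5 with I-CBP112 and 19.5 and 15.5 with A-485. The 3 groups did not overlap, and the difference between the inhibitors was -2.14 ± 0.14 (adjusted p = 0.00200). Against DMSO it was 1.11 ± 0.14 with I-CBP112 (adjusted p = 0.0522, not called) and -1.03 ± 0.14 with A-485 (adjusted p = 0.00911). LPIN1, a phosphatidate phosphatase, followed the same order at 9.86 and 12.5, 17.3 and 15.1, and 7.77 and 7.54 (-0.99 ± 0.17, adjusted p = 0.0365). LPIN1 did not pass against DMSO with either inhibitor (limma, adjusted p = 0.0973 with A-485 and 0.211 with I-CBP112).

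In 4 other lipid enzymes A-485 lay farther from DMSO than I-CBP112 did. ELOVL7, an elongase of very long fatty acids, was at 21.0 and 16.1 scaled FPKM with I-CBP112 and 2.25 and 3.62 with A-485, and at 16.7 and 13.4 with DMSO (-2.32 ± 0.23, adjusted p = 0.00921). SCD, the desaturase that makes oleate, was at 351 and 344 against 126 and 108 (-1.57 ± 0.17, adjusted p = 0.0127). Squalene synthase, FDFT1, was at 203 and 233 against 105 and 114 (-0.99 ± 0.19, adjusted p = 0.0490). FADS2, a desaturase of polyunsaturated fatty acids, was at 669 and 550 against 370 and 261 (-0.96 ± 0.16, adjusted p = 0.0358). In each of these 4 genes the libraries of the inhibitors did not overlap. SQLE (-0.99 ± 0.14), LSS (-0.92 ± 0.15), ME1 (-0.90 ± 0.15) and SREBF1 (-0.85 ± 0.15), the gene of SREBP1, were also called. HMGCS1 (-0.18 ± 0.18), an early enzyme of the cholesterol pathway, was not called, and its 2 pairs differed in sign.

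**Figure D3:**
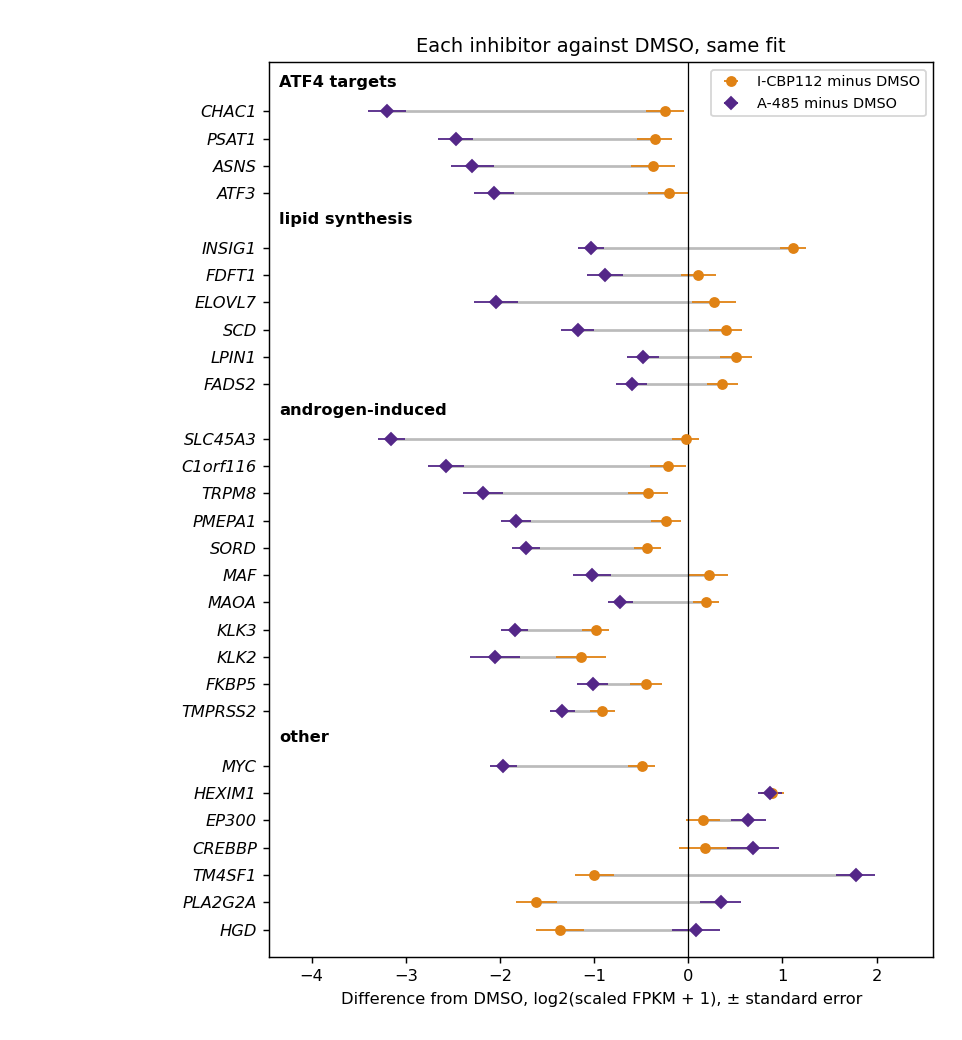
Difference of each inhibitor from DMSO on the log2(scaled FPKM + 1) scale for named genes, with standard errors (2 libraries per group). Circles are I-CBP112 and diamonds A-485, and both share the DMSO libraries; INSIG1 lies at 1.11 and -1.03, whereas for HEXIM1 the symbols coincide at 0.89 and 0.87.

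Most androgen-induced genes had values below 0, and a minority of them were called. Of 20 measured members of the androgen activity score 5 were called lower with A-485 and 0 higher (median -0.50), 18 lay below 0, and 12 of these had an unadjusted p under 0.05. Of 25 other androgen-induced genes 4 were called lower and 0 higher (median -0.29, and 0.03 on the FPKM as deposited), 19 lay below 0, and 11 of these had an unadjusted p under 0.05. Without either I-CBP112 library these counts were 3 and 1. PMEPA1, an inhibitor of TGF-beta signalling, was at 87.1 and 66.5 scaled FPKM with I-CBP112 and 24.2 and 24.98 with A-485 (-1.59 ± 0.16, adjusted p = 0.00941). MAF, a leucine zipper transcription factor, was at 4.37 and 3.34 against 1.101 and 0.985 (-1.24 ± 0.21, adjusted p = 0.0341). The other called members outside this score, beside SLC45A3, were the cold-sensing channel TRPM8 (2.80 and 3.42 against 0.144 and 0.306, -1.75 ± 0.21), sorbitol dehydrogenase SORD (345 and 332 against 138 and 138, -1.29 ± 0.14) and monoamine oxidase MAOA (299 and 299 against 155 and 162, -0.91 ± 0.13).

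For KLK3, KLK2 and TMPRSS2 every library of either inhibitor lay below both DMSO libraries. Against DMSO the A-485 differences of -1.85 ± 0.14, -2.06 ± 0.27 and -1.34 ± 0.13 were called (limma, adjusted p from 0.00256 to 0.00829). The I-CBP112 differences of -0.99 ± 0.14, -1.14 ± 0.27 and -0.91 ± 0.13 were not (limma, adjusted p from 0.0809 to 0.145), in a comparison where 0 genes were called. KLK3, the gene of prostate-specific antigen, was at 2302 and 2007 scaled FPKM in the DMSO libraries, 1095 and 1076 with I-CBP112 and 562 and 635 with A-485. The inhibitors differed by -0.86 ± 0.14 (adjusted p = 0.0348, and 0.0934 without the replicate block). KLK2, its neighbour in the kallikrein cluster, was at 562 and 368, 207 and 204, and 106 and 111, and its difference of -0.91 ± 0.27 was not called (adjusted p = 0.131, 95% interval -1.54 to -0.29). TMPRSS2, a membrane serine protease, was at 193 and 167, 110 and 81.9, and 74.4 and 66.5, with a difference of -0.43 ± 0.13 (adjusted p = 0.141, 95% interval -0.74 to -0.11). FKBP5, a cochaperone of steroid receptors, was at 14.7 and 16.8 with I-CBP112 and 10.01 and 10.6 with A-485 (-0.56 ± 0.17, adjusted p = 0.133, 95% interval -0.96 to -0.17). The test did not call these 3 genes. Their inhibitor libraries did not overlap, but without the share over all genes tested this is no support for a difference.

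FOLH1, the gene of prostate-specific membrane antigen, was at 552 and 545 scaled FPKM with I-CBP112 and 285 and 267 with A-485 (-0.99 ± 0.14, adjusted p = 0.0204). It belongs to a list of 8 measured androgen-repressed genes whose median was 0.14, with 2 called lower and 0 higher, and none called lower with totals made equal only or without either I-CBP112 library. FOXA1, a pioneer factor of prostate epithelium, stood at -0.48 ± 0.14 and HOXB13 at 0.17 ± 0.15, neither called.

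Among 14 luminal transcription factors 4 were called lower, KLF5 and MYC among them, and 1 higher, ELF3. KLF5, a factor of epithelial progenitors, was low throughout, at 3.44 and 4.72 scaled FPKM with I-CBP112 and 0.301 and 0.253 with A-485 (-1.98 ± 0.22, adjusted p = 0.0127). MYC, the growth-promoting transcription factor, was at 249 and 198 with DMSO, 157 and 158 with I-CBP112 and 60.3 and 52.3 with A-485 (-1.47 ± 0.14, adjusted p = 0.00752). The 3 groups of MYC values did not overlap. ELF3, an epithelial ETS factor, went the other way at 16.3 and 14.8 with I-CBP112 and 42.5 and 29.4 with A-485 (1.14 ± 0.16, adjusted p = 0.0202) and 31.3 and 22.2 with DMSO, which overlapped with A-485 only. S100P, a calcium-binding protein and the 1 called member of 14 glucocorticoid-responsive genes, was at 38.3 and 39.4 with DMSO, 14.2 and 15.8 with I-CBP112 and 4.37 and 6.53 with A-485 (-1.33 ± 0.16, adjusted p = 0.0144). Without I-CBP112 replicate 1 or 2 the transcription factor list had 2 or 1 called lower and none higher.

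**Figure D4:**
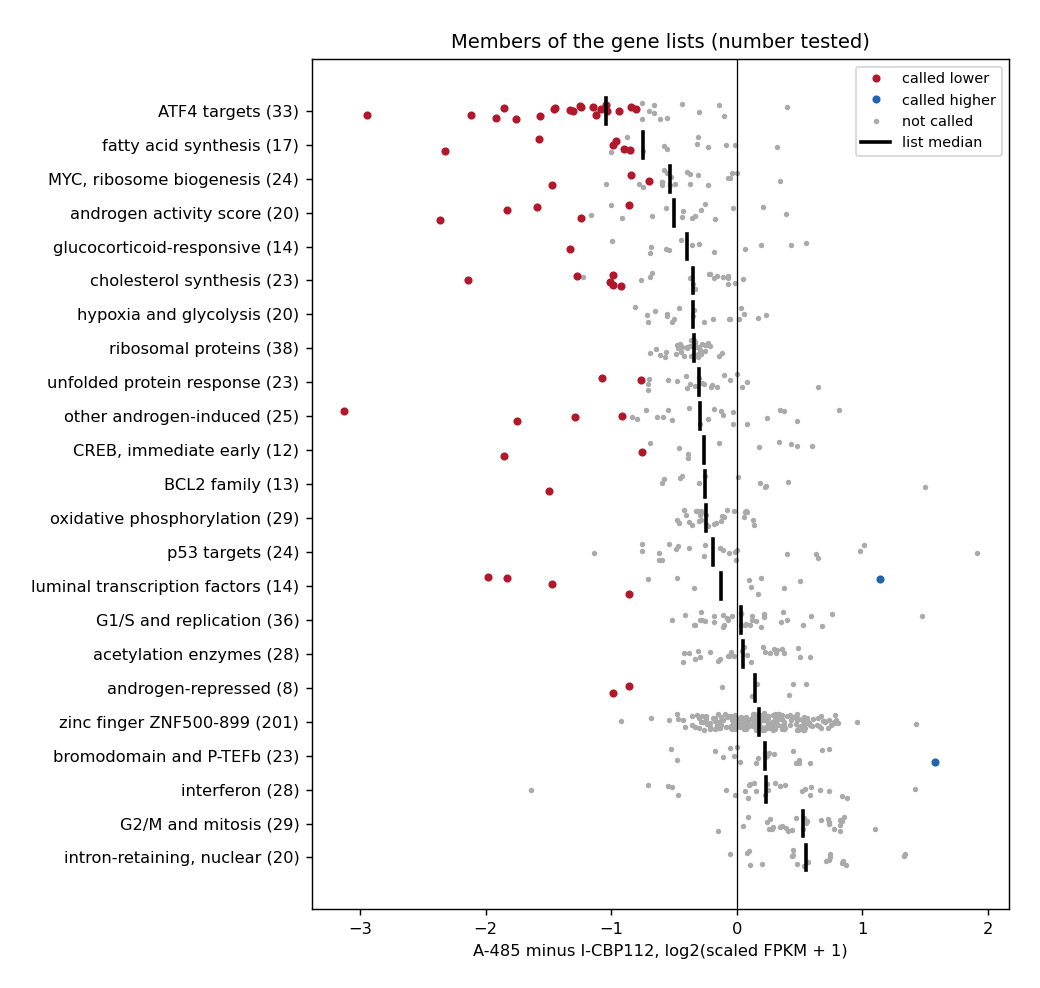
Difference between A-485 and I-CBP112 on the log2(scaled FPKM + 1) scale for each tested member of 23 gene lists, ordered by the list median (black bar). Red points are members called lower, blue points members called higher and grey points members not called; the ATF4 list has the most calls, 20 of 33.

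MYC drives genes of ribosome assembly, and 3 of 24 measured members of that list were called lower and 0 higher (median -0.53), MYC among them. The count was 9 with a correction for length and GC content or without either DMSO library, 1 without the replicate block, 1 or 0 without I-CBP112 replicate 1 or 2, and 0 on the FPKM as deposited, where the median was -0.09. PES1, which acts in the maturation of the large ribosomal subunit, was at 117 and 120 scaled FPKM with I-CBP112 and 77.0 and 55.9 with A-485 (-0.84 ± 0.15, adjusted p = 0.0433). PPAN, of the same pathway, was at 72.9 and 75.7 against 48.6 and 42.5 (-0.70 ± 0.13, adjusted p = 0.0433). Of 38 ribosomal protein genes 0 were called (limma; 14 at an unadjusted p under 0.05), all 38 lay below 0, and the median was -0.35 (0.11 on the FPKM as deposited). The largest was RPLP0, at 9282 and 9408 against 5644 and 5905 (-0.69 ± 0.19, adjusted p = 0.117). Across all genes the difference between the inhibitors rose weakly with transcript length (Spearman rho 0.193). Genes under 1000 bases had a median of -0.14 and those over 6000 bases one of 0.14. After the correction for length and GC content the ribosomal median was -0.23. The part of transcript length in the ribosomal values was not tested.

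Mitotic genes stood above 0 between the inhibitors, and whether any was called depended on the fit. The G2/M list had a median difference from DMSO of -0.27 with I-CBP112 and 0.21 with A-485. Of 29 genes of the G2/M list 28 lay above 0, the median was 0.52 (0.45 with the length and GC correction), and 0 were called (limma; 14 at an unadjusted p under 0.05). With that correction, and also without either DMSO library, 2 were called higher. CDK1, the kinase that starts mitosis, was at 30.2 and 48.8 scaled FPKM in the DMSO libraries, 26.1 and 26.8 with I-CBP112 and 48.9 and 68.0 with A-485 (1.10 ± 0.21, adjusted p = 0.0510, 95% interval 0.59 to 1.60), and with the correction at 0.92 (limma, adjusted p = 0.0236). The G1/S and replication list, with 36 genes, had a median of 0.03 with 0 called (limma). At an unadjusted p under 0.05 it held 6, beside 2550 of 11876 over all genes. Against DMSO the median of the list was -0.57 with I-CBP112 and -0.53 with A-485. CCNE2, cyclin E2, was the farthest, at 2.11 and 1.80 against 5.93 and 8.71 (1.48 ± 0.29, adjusted p = 0.0510), and it too was called with the correction (1.26, limma, adjusted p = 0.0236). Of 20 genes listed for intron-retaining or nuclear transcripts, each summed over all its transcripts, 19 lay above 0. Their median was 0.55 and 0 were called (limma, with 7 at an unadjusted p under 0.05). Their summed level was 816 and 917 with DMSO, 739 and 851 with I-CBP112 and 921 and 1033 with A-485. GOLGA8B was the farthest of them (1.34 ± 0.36, adjusted p = 0.115).

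The genes of the 2 proteins that both compounds target were not called between them. EP300 was at 8.92 and 11.1 scaled FPKM with I-CBP112 and 15.1 and 13.6 with A-485 (0.49 ± 0.18, adjusted p = 0.196, 95% interval 0.06 to 0.91). CREBBP was at 9.81 and 10.7 against 16.7 and 13.4 (0.50 ± 0.28, adjusted p = 0.332, 95% interval -0.15 to 1.16). Of 28 acetylation enzymes 0 were called (limma; 6 unadjusted) and the median was 0.05, with the acetyltransferase KAT2B farthest from 0 (0.58 ± 0.17, adjusted p = 0.126). HEXIM1, which holds the elongation factor P-TEFb inactive, was at 16.6 and 19.5 with DMSO, 32.6 and 35.9 with I-CBP112 and 32.4 and 35.0 with A-485. The inhibitors differed by -0.02 ± 0.12 (adjusted p = 0.933, 95% interval -0.32 to 0.27), while A-485 was above DMSO by 0.87 ± 0.12 (adjusted p = 0.0103) and I-CBP112 by 0.89 ± 0.12 without being called (adjusted p = 0.0721). In a list of 23 genes drawn up for bromodomain proteins and P-TEFb, the 1 called was SERPINI1, which encodes the secreted protease inhibitor neuroserpin and is neither (limma; 6 at an unadjusted p under 0.05, SERPINI1 among them). Over all genes 2.49% were called, and 2550 of 11876 had an unadjusted p under 0.05 (limma). The counts of both lists are near that background. CCND1 (-0.48 ± 0.13, 95% interval -0.79 to -0.17) and CDKN1A (-0.49 ± 0.14, 95% interval -0.83 to -0.15), the genes of cyclin D1 and the inhibitor p21, were not called.

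Higher levels with A-485 than with I-CBP112 came in more than one form. In the first, A-485 stood above DMSO. TM4SF1, a membrane protein of the L6 family, was at 2.66 and 3.0 scaled FPKM in the DMSO libraries, 0.574 and 1.33 with I-CBP112 and 10.01 and 14.6 with A-485 (2.78 ± 0.21, adjusted p = 0.00315). NAIP, a sensor of bacterial proteins, was at 3.10 and 3.91 with I-CBP112 and 11.04 and 15.5 with A-485 (1.65 ± 0.19, adjusted p = 0.0127). NAIP has near-identical partial copies in the genome, so its level is uncertain. SERPINI1 was at 5.97 and 4.53 against 14.7 and 21.0, with DMSO at 5.26 and 4.23 (1.58 ± 0.23, adjusted p = 0.0254). ST5, a regulator of RAB and MAPK signalling, was at 6.11 and 6.12 against 15.0 and 34.1 (1.74 ± 0.30, adjusted p = 0.0365). DYNC2LI1, of the dynein that works in cilia, was at 2.31 and 4.80 against 6.67 and 13.2, and replicate 2 was the higher in each group (1.25 ± 0.21, adjusted p = 0.0364). The neighbouring values were those of von Willebrand factor VWF, at 2.10 and 1.69 against 7.67 and 4.73 (1.29 ± 0.20, adjusted p = 0.0295), and the small GTPase RAB19, at 3.09 and 2.77 against 8.24 and 8.48 (1.25 ± 0.18, adjusted p = 0.0222). Against DMSO all 7 were called with A-485 (limma, adjusted p from 0.00283 to 0.0371).

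In the second form, A-485 lay near DMSO and I-CBP112 below both. PLA2G2A, a secreted phospholipase, was at 25.2 and 22.3 scaled FPKM in the DMSO libraries, 5.69 and 8.72 with I-CBP112 and 33.8 and 27.2 with A-485 (1.96 ± 0.22, adjusted p = 0.0127). HGD, an enzyme of tyrosine breakdown, was at 11.9 and 15.9, 4.92 and 4.60, and 13.1 and 16.5 (1.45 ± 0.25, adjusted p = 0.0382). IER5L, of the immediate early response family, was at 13.7 and 8.72, 5.12 and 4.04, and 15.7 and 12.6 (1.44 ± 0.18, adjusted p = 0.0144). MYL9, a myosin light chain, was at 4.26 and 4.03, 1.73 and 1.82, and 5.71 and 5.56 (1.26 ± 0.20, adjusted p = 0.0330). AC110275.1, an annotated locus without a gene name, was at 8.83 and 5.10, 0.772 and 1.53, and 9.56 and 5.49 (1.97 ± 0.32, adjusted p = 0.0341). In these 5 genes every I-CBP112 library lay below every DMSO and A-485 library, and A-485 was not called against DMSO (limma, adjusted p from 0.226 to 0.851). Against DMSO their I-CBP112 differences ran from -1.87 to -0.89 and were not called (limma, adjusted p from 0.0692 to 0.145).

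The called genes of the cell death, stress and immune lists were PMAIP1, JUN and ATF3. PMAIP1, the proapoptotic BCL2 family member NOXA, was at 11.03 and 11.6 scaled FPKM with I-CBP112 and 2.78 and 4.04 with A-485 (-1.49 ± 0.17, adjusted p = 0.0127), and was the 1 member called of 13. The immediate early factor JUN, called together with ATF3 among 12 genes of the CREB list, was at 35.9 and 34.5 against 19.1 and 21.8 (-0.76 ± 0.13, adjusted p = 0.0387). Among 24 p53 targets (median -0.19), 28 interferon genes (0.23), 10 NF-kB genes (0.14), 29 oxidative phosphorylation genes (-0.25), 20 hypoxia and glycolysis genes (-0.35), 6 metallothioneins (-0.12), 201 zinc finger genes from ZNF500 to ZNF899 (0.18) and 3 neuroendocrine genes (0.17), limma called 0. At an unadjusted p under 0.05 these lists held 14, 9, 0, 5, 9, 4, 34 and 1 genes in that order, beside 2550 of 11876 over all genes. The lists with medians below 0 did not keep that sign on the FPKM as deposited, where p53 targets stood at 0.22, oxidative phosphorylation at 0.21, hypoxia and glycolysis at 0.03 and metallothioneins at 0.20, all under the 0.31 of all genes. Oxidative phosphorylation also moved to -0.05 with totals made equal only, where all genes lay at 0.18, and to -0.11 with the length and GC correction. That correction brought 2 calls among p53 targets, 2 among interferon genes and 1 among zinc finger genes. The farthest members were the p53 target TP53I3 (1.91 ± 0.54), the antiviral gene OASL (-1.64 ± 0.49), IER3 (-0.89 ± 0.47), the respiratory subunit NDUFB10 (-0.48 ± 0.20), hexokinase HK2 (-0.81 ± 0.20), MT1F (1.33 ± 0.28), ZNF823 (1.43 ± 0.39) and SYT4 (0.70 ± 0.27). Their adjusted p ranged from 0.0600 for MT1F to 0.321 for IER3. For TP53I3 the pairs gave 0.77 and 3.06, for OASL -0.49 and -2.79, for ZNF823 0.61 and 2.24 and for IER3 0.06 and -1.84, so a single pair carried most of each difference and the pairs of IER3 had opposite signs. With a library left out IER3 ran from -1.57 to -0.21.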

How the data were processed

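The authors' deposited table held FPKM for 81591 transcripts in 8 libraries; 78.31% of its values were not whole. STAR, Cufflinks, DESeq, DESeq2, hg19 and GRCh37 are named per the submitters' processing notes, without versions or roles. Transcripts were assigned to genes by Ensembl identifier in GENCODE release 29 (GRCh38, used for names, lengths and GC content); 74209 matched (90.95%) and were summed to 19431 genes. Libraries were scaled to 1e+06 and by a trimmed mean of log ratios (30% of ratios, 5% of levels). Genes reaching 1 scaled FPKM in at least 2 libraries entered a limma fit (version 3.58.1, R 4.3.3) of log2(scaled FPKM + 1) on group and replicate number (3 residual degrees of freedom), and the method was tested on simulated data. Fragment numbers were estimated from the steps of low values (77.9% to 83.0% whole multiples within 0.1) and are approximate. Replicate numbers pair the libraries: the prefixes in the labels are shared by all treatments, and deviations from the group means correlated across genes between every pair of groups (r from 0.144 to 0.425).

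The genes named are the 12 called with the largest difference in each direction (same direction in both pairs, mean of at least 5 scaled FPKM in the group where the gene is higher), a panel of 10 genes, and up to 4 called members of each of 26 lists, or the farthest member where none was called. The other ATF4 and lipid list members, ATF4, HMGCS1, FOXA1 and HOXB13 were named after their values were seen. Some named genes are not reported here. The comparison, lists and panel were chosen with earlier results of these data known. Alternatives covered the block, pseudocount, filter, scaling, groups fitted, transcript type, length and GC content, and each library left out.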

Additional observations from a re-analysis of the deposited data

How the results depend on the processing

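Differences between A-485 and I-CBP112 kept their direction under the alternatives tried in the 74 genes that the naming rule chose, except TMPRSS2 and HEXIM1. Neither of these was called. In this design some alternatives leave the difference itself unchanged. They are no block, another filter, the 2 inhibitor groups alone, and a DMSO library or a library of both inhibitors left out. TRIM49D1, for example, stayed at -3.18 in all of them. Genes chosen for the largest differences also had to have the same direction in both pairs. Kept direction was therefore partly fixed in advance and is no separate support to that extent. TMPRSS2 stood at 0.012 on the FPKM as deposited, and HEXIM1 at 0.17 with totals made equal only and 0.38 as deposited. The median gene lay at 0.18 with totals made equal only and 0.31 as deposited, so 0 was not its level there. Genes named outside the rule were not followed. The number of genes called, 296 (52 higher, 244 lower), was 103 (10 and 93) with no replicate block, 21 (1 and 20) without a filter, 186 (66 and 120) with totals only, 94 (63 and 31) on the FPKM as deposited, 94 (9 and 85) with the 2 inhibitor groups alone and 451 (96 and 355) with the block and a length and GC correction. All 103 genes called without the pairing were among the 296, as were 45 of the 94 on the FPKM as deposited and 288 of the 451. With each library left out the number ran from 0 to 794 (0 to 227 higher, 0 to 567 lower). A group left with 1 library was assumed to vary like the others. Of the 53 of the 74 that were called, 0 were called in all 8 of these fits, 34 without the block and 53 with the length and GC correction. The 1606 calls of A-485 against DMSO became 559 without the block, 667 without a filter, 830 on the FPKM as deposited and 14 to 3080 with a library left out. The 0 calls of I-CBP112 became 18 with a pseudocount of 5, 25 with a filter at 5, 16 on the FPKM as deposited, 18 with protein-coding transcripts, 28 with the length and GC correction and 0 to 439 with a library left out. The cause of these changes was not tested.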

Other observations

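The cytosolic aminoacyl-tRNA synthetases, which load amino acids onto tRNAs, were looked at as a whole family after the values of the ATF4 list had been seen. Of 20 measured, 6 were called lower with A-485 than with I-CBP112 (AARS, CARS, GARS, MARS, SARS and YARS), beside 2.05% of all genes. AARS, CARS and GARS are also called members of the ATF4 list, so the results overlap. Of the 20, 19 lay below 0 and the median was -0.60. Without the replicate block 1 was called.

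Some genes called between the inhibitors lay farther from DMSO with I-CBP112 than with A-485, and 3 are named here after their values were seen. PTPN12, a tyrosine phosphatase, was at 8.36 and 11.6 scaled FPKM in the DMSO libraries, 52.1 and 38.6 with I-CBP112 and 16.1 and 16.0 with A-485 (A-485 minus I-CBP112 -1.43 ± 0.24, limma, adjusted p = 0.0358). CAMK2N1, an inhibitor of the kinase CaMKII, was at 102 and 102, 35.4 and 49.0, and 86.2 and 96.4 (1.11 ± 0.15, limma, adjusted p = 0.0202). KLF4, an epithelial transcription factor, was at 5.63 and 6.14, 2.61 and 2.05, and 6.78 and 6.27 (1.18 ± 0.18, limma, adjusted p = 0.0301). Against DMSO, limma called none of the 3 with I-CBP112 (adjusted p = 0.0509 for PTPN12 and CAMK2N1, 0.122 for KLF4) or with A-485.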
